A study of Rattus norvegicus with 9 samples.

Results

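Akr1c15 and 7 other genes of neurosteroid metabolism were followed through puberty in the female rat hypothalamus. A probe set was taken where the platform annotation gave it exactly 1 gene symbol, that of a listed gene. This gave 12 probe sets for 7 of the 8 genes, out of 31042 probe sets and 14217 named genes, and Srd5a1 is not analysed here. Akr1c15 had been picked because its level was higher in both pubertal stages than in juvenile animals, so its differences from juvenile animals are given as a description, without a test. The other genes were listed by function, with earlier results of these data known.

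RNA of the hypothalamus was hybridised to 9 single-channel Affymetrix rat arrays. The groups were normal juvenile females at day 26, which the labels treat as controls, normal early pubertal females at day 29 and normal late pubertal females at day 31, with 3 arrays each. The labels name no strain, genotype or treatment and give each array the hypothalamus of 1 animal, so n = 3 counts animals. Such bulk tissue mixes neurons, glia, vessels and membranes, and a change in the number of cells of a type cannot be told apart from a change in RNA per cell.

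Neurosteroids are steroids that the brain makes from cholesterol or remodels from circulating hormones. Star and Tspo serve the delivery of cholesterol into mitochondria, where synthesis begins. Reduction by 5α-reductases and then by Akr1c14, the rat 3α-hydroxysteroid dehydrogenase, yields allopregnanolone, which enhances GABA-A receptors. Cyp19a1 is aromatase and makes oestradiol, Hsd17b4 is a peroxisomal enzyme that oxidises oestradiol and shortens fatty acids, and Hsd11b1 regenerates corticosterone from its inert keto form. Akr1c15 is an aldo-keto reductase of the same subfamily as Akr1c14, and RefSeq lists 17beta-HSD among its synonyms.

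Akr1c15 and Akr1c14 are neighbours on chromosome 17 of the RefSeq GRCr8 annotation, with 0 annotated genes between them. Whether the levels of the neighbours differ in course was not tested, since Akr1c15 was chosen for its course. Their promoters are printed as a description, and the part of any motif in the levels was not tested. Each runs 5′ to 3′ on the minus strand from 250 bases before to 50 bases after 1 annotated start, as RefSeq gives it for GRCr8. The gene record of Akr1c15 reaches further upstream than this start, to 71117985, so the motif positions given for Akr1c15 hold for this start only. Akr1c15 lies at chr17:71117908-71118207 and Akr1c14 at chr17:71083135-71083434, and capitals mark the motif matches.
Akr1c15: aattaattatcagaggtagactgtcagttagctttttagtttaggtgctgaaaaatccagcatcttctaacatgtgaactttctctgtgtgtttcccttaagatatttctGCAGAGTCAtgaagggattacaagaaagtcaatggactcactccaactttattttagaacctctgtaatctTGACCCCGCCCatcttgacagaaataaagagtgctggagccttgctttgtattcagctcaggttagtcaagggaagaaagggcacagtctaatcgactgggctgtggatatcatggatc
Akr1c14: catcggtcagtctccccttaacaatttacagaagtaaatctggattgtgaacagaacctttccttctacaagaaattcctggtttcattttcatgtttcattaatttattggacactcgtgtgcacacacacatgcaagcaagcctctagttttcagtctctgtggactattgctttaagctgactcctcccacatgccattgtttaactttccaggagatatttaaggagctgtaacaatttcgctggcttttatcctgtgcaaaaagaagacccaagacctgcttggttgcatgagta
The motifs searched on both strands were AGAACA and AGGTCA, half-sites of steroid and other nuclear receptors, TGACNNNGC, the core of the antioxidant response element, CCGCCC, the GC box, and TATAAA. Akr1c15 held TGACNNNGC on the minus strand of the gene with its leftmost base at −140 and again on the plus strand at −69, where it overlapped CCGCCC at −64. Akr1c14 held none of the 5 motifs in this window. Over all 33469 promoters of this length, TGACNNNGC occurred in 12.1%, CCGCCC in 33.1%, AGAACA in 20.7%, AGGTCA in 16.2% and TATAAA in 14.2%.

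Deposited intensities were not on one level, with trimmed means that differed by up to 1.42 times. Median signal lay between 102 and 113 on juvenile, 79.8 and 101 on early pubertal and 102 and 122 on late pubertal arrays. Levels below are therefore log2(signal + 16) after quantile normalization. The test covered the 18625 probe sets brighter, on average over all arrays, than the 40th percentile, a log2 level of 6.30. Of 15 markers of hypothalamic neurons, 12 lay above that level and Pomc, Sim1 and Otp lay below it. Of 9 pituitary markers, Gh1, Prl, Pou1f1 and Pitx1 lay below it, while Lhb, Fshb, Tshb, Cga and Ghrhr lay above it. Cga was bright, with mean log2 levels per stage between 10.62 and 10.87. Tshb stood at 9.18 in juvenile animal 2 and between 6.04 and 7.99 on every other array. Whether pituitary tissue was part of any sample was not tested. The test was limma with Benjamini-Hochberg adjustment over all tested probe sets, and its threshold was an adjusted p of 0.05.

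Of the 12 probe sets, 4 lay above the signal filter, 1 each for Akr1c15, Tspo, Hsd17b4 and Hsd11b1. The other 8, which stand for Akr1c14, Star and Cyp19a1, lay below it and are described from a fit without the filter.

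Akr1c15 was low in every juvenile animal and higher in every pubertal one, at a level that was nearly the same on days 29 and 31. Juvenile animals 1, 2 and 3 had deposited intensities of 38.2, 35.7 and 62.3. Those of early pubertal animals 7, 8 and 10 were 137, 134 and 93.3, and those of late pubertal animals 12, 14 and 20 were 120, 143 and 166. After normalization the log2 levels were 5.74, 5.61 and 6.29 in juvenile animals, 7.27, 7.37 and 7.08 in early pubertal animals and 7.10, 7.29 and 7.29 in late pubertal animals. Neither pubertal stage overlapped the juvenile arrays, a separation shared by 8.3% of tested probe sets for the early and 11.4% for the late pubertal stage, and the early and late pubertal arrays overlapped each other. All 3 juvenile arrays lay below the filter level and all 6 pubertal arrays above it, so Akr1c15 passed the filter through the stages in which it was high.

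The mean log2 level of Akr1c15 was 7.24 ± 0.15 (SD, n = 3) in early pubertal animals, against 5.88 ± 0.36 in juvenile animals. That is a difference of 1.36 ± 0.20 (SE), or 2.57-fold on the log2(signal + 16) scale and 2.67-fold between mean deposited intensities. In late pubertal animals the mean was 7.23 ± 0.11, and the difference from juvenile animals was 1.35 ± 0.20, or 2.55-fold and 3.16-fold on the same scales. Both differences use the same juvenile arrays, and juvenile replicate 3, the highest of them, moved them most: without it they were 1.57 and 1.56. Among 18625 tested probe sets Akr1c15 ranked 1 by increase in both comparisons, a rank its choice rested on. The constant added before the log set much of the size, since with 64 in place of 16 the differences were 0.89 and 0.88, and with 1 they were 1.65 and 1.64.

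**Figure D1:**
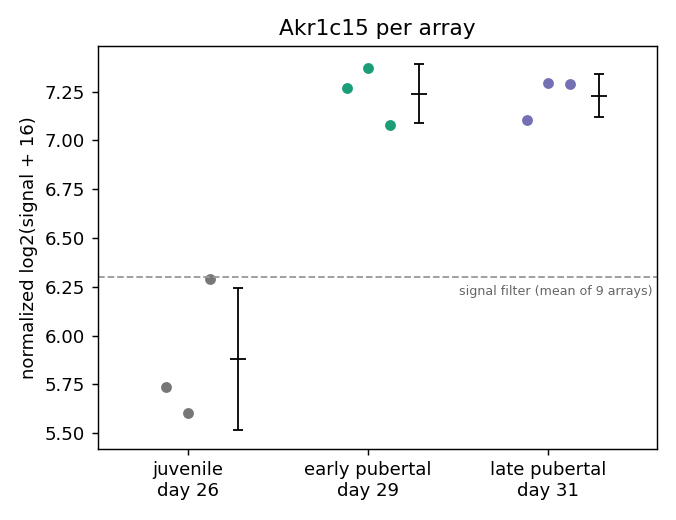
Normalized log2(signal + 16) of Akr1c15 on each array, by stage, with the mean and SD of 3 arrays as a black bar to the right of the points. The juvenile points lie between 5.61 and 6.29 and the pubertal points between 7.08 and 7.37; the dashed line is the filter level of 6.30.

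The step from day 29 to day 31 had not been used to choose Akr1c15 and was tested. The mean was 7.23 ± 0.11 in late pubertal animals and 7.24 ± 0.15 in early pubertal animals (SD, n = 3 each), a difference of −0.01 ± 0.20 with a limma adjusted p of 0.996. The 95% interval ran from −0.44 to 0.42, so a difference of any size within it could not be told from 0 with 3 arrays a stage. At the deposited level, where the median of all tested probe sets was 0.22 higher in late than in early pubertal animals, the difference was 0.22. The sign also turned with array weights, at 0.03, and without early pubertal replicate 7 (0.00365), early pubertal replicate 8 (0.06) or late pubertal replicate 12 (0.05).

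Over the whole table, limma called 0 of 18625 probe sets, 0% in each of the 3 comparisons. Before adjustment, 831 probe sets (4.46%) were below 0.05 between early pubertal and juvenile animals, 772 (4.14%) between late pubertal and juvenile animals and 971 (5.21%) between late and early pubertal animals.

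Cholesterol transport was represented by Tspo and Star, and Tspo, the one above the filter, did not pass the test. Tspo, the translocator protein of the outer mitochondrial membrane, had log2 levels of 7.63, 7.86 and 7.93 in juvenile animals, 7.86, 7.99 and 7.77 in early pubertal animals and 8.05, 7.61 and 8.03 in late pubertal animals. The stages overlapped throughout. Tspo differed by 0.07 ± 0.15 (SE, n = 3 per stage) between early pubertal and juvenile animals, with a 95% interval from −0.26 to 0.39 and a limma adjusted p of 0.996. Between late pubertal and juvenile animals it differed by 0.09 ± 0.15 (adjusted p 0.9998), with an interval from −0.23 to 0.41.

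Star, the steroidogenic acute regulatory protein, was dim and variable on both of its probe sets. On 1368406_at its log2 levels were 4.89, 5.24 and 5.92 in juvenile animals, 4.34, 5.83 and 5.51 in early pubertal animals and 6.35, 6.07 and 5.07 in late pubertal animals. Levels within a stage spanned more than the means of the stages did. The other probe set, 1387174_a_at, averaged 4.88 ± 0.53 in juvenile animals, 4.55 ± 0.32 in the early stage and 4.88 ± 0.53 in the late stage of puberty (SD, n = 3 each). The Star probe sets correlated at r = 0.789 over the 9 arrays, a description of how far they track each other. At these levels no difference between stages was detectable.

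Akr1c14 had 3 probe sets, all below the filter, and they did not follow a common course. On 1370563_at the log2 levels were 4.84, 5.08 and 4.48 in juvenile animals, 6.01, 5.56 and 6.26 in early pubertal animals and 4.41, 5.31 and 5.06 in late pubertal animals. Every early pubertal array thus lay above every juvenile and every late pubertal array on this probe set. Its deposited intensities nevertheless stayed between 5.58 and 48.9 on all 9 arrays. In the fit without the filter the difference was 1.14 ± 0.28 (SE) between early pubertal and juvenile animals, with a limma adjusted p of 0.994. Between late and early pubertal animals it was −1.02 ± 0.28, with an adjusted p of 0.884. With 64 added before the log in place of 16 these were 0.53 and −0.48, and with 1 they were 1.91 and −1.71.

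The other Akr1c14 probe sets gave another picture. On 1396933_s_at, whose suffix marks probes that can match more than 1 transcript, the mean was 5.71 ± 0.38 in early pubertal animals and 6.01 ± 0.31 in juvenile animals (SD, n = 3), a difference of −0.29 ± 0.25. The third probe set, 1370708_a_at, differed by −0.03 ± 0.31 between the same stages. Pairs of Akr1c14 probe sets correlated at r between −0.138 and 0.384 over the 9 arrays. Averaged over the 3 probe sets, Akr1c14 differed by 0.27 between early pubertal and juvenile animals and by −0.35 between late and early pubertal animals.

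Akr1c14 had no probe set with the course of Akr1c15, in which both pubertal stages were high. The difference between the genes was not tested, since the course of Akr1c15 was what it was chosen for. RefSeq lists 9 protein-coding Akr1c genes, of which 6 had a probe set and 3, Akr1c2, Akr1c12 and Akr1c12l1, are not analysed here. Akr1c19 was the only other one above the filter, and its levels overlapped between all stages. Akr1c19 averaged 7.11 ± 0.28 in early pubertal animals and 6.96 ± 0.19 in juvenile animals (SD, n = 3), a difference of 0.15 ± 0.20 (SE, limma adjusted p 0.994). The deposited level gave −0.06 there, beside a median of −0.24 over all tested probe sets. Between late pubertal and juvenile animals Akr1c19 differed by 0.12 ± 0.20.

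Akr1c1, Akr1c3 and Akr1c13 lay below the filter. Akr1c3, which in the rat encodes the 20α-hydroxysteroid dehydrogenase that inactivates progesterone, differed by 0.05 ± 0.29 between early pubertal and juvenile animals and by 0.02 ± 0.29 between late pubertal and juvenile animals. Akr1c13 differed by 0.06 ± 0.26 and −0.04 ± 0.26, and Akr1c1 by −0.11 ± 0.14 and 0.02 ± 0.14, in the same comparisons. Genes of this subfamily are alike in sequence, and how far a probe set of one detects another was not tested.

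Cyp19a1, aromatase, was also below the filter on its 3 probe sets. On 1379643_at the log2 levels were 5.53, 5.88 and 5.58 in juvenile animals, 5.94, 6.11 and 6.05 in early pubertal animals and 5.60, 4.70 and 5.29 in late pubertal animals. The early pubertal arrays lay above those of both other stages. In the fit without the filter this probe set differed by 0.37 ± 0.25 (SE) between early pubertal and juvenile animals (limma adjusted p 0.994) and by −0.84 ± 0.25 between late and early pubertal animals (adjusted p 0.885). The probe set 1382425_at gave 0.17 ± 0.32 and −0.11 ± 0.32 for these comparisons, and 1369444_at gave 0.14 ± 0.28 and 0.13 ± 0.28. Stages overlapped on both. Averaged over the 3 probe sets, the difference between late and early pubertal animals was −0.27.

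Hsd17b4 overlapped between all stages. Its log2 levels were 9.56, 9.60 and 9.72 in juvenile animals, 9.80, 9.68 and 9.60 in early pubertal animals and 9.67, 9.91 and 9.57 in late pubertal animals. The difference between late pubertal and juvenile animals was 0.09 ± 0.10 (SE), with a 95% interval from −0.13 to 0.31 and a limma adjusted p of 0.9998. Late pubertal replicate 14 was the highest of the 9 arrays, and without it the value was −0.00360. Between early pubertal and juvenile animals Hsd17b4 differed by 0.07 ± 0.10 (adjusted p 0.994).

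Hsd11b1 had log2 levels of 8.43, 8.40 and 8.44 in juvenile animals, 8.57, 8.64 and 8.32 in early pubertal animals and 8.51, 8.60 and 8.68 in late pubertal animals. Every late pubertal array lay above every juvenile array, while the early pubertal arrays spanned the juvenile ones. The late pubertal mean was 8.60 ± 0.08, against 8.42 ± 0.02 in juvenile animals (SD, n = 3 each), a difference of 0.17 ± 0.11 (SE) with a 95% interval from −0.07 to 0.42. The limma adjusted p was 0.9998, and an exact two-sided permutation test gave p = 0.1, the smallest value that 3 against 3 allows. Between early pubertal and juvenile animals Hsd11b1 differed by 0.09 ± 0.11 (adjusted p 0.994).

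The small early pubertal differences changed sign without normalization, and that of Tspo also did without juvenile replicate 1, at −0.024. At the deposited level, where the median of all tested probe sets was −0.24 between early pubertal and juvenile animals, Tspo stood at −0.19, Hsd17b4 at −0.19 and Hsd11b1 at −0.17. Relative to that median all 3 remained slightly above 0, as they were after normalization.

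**Figure D2:**
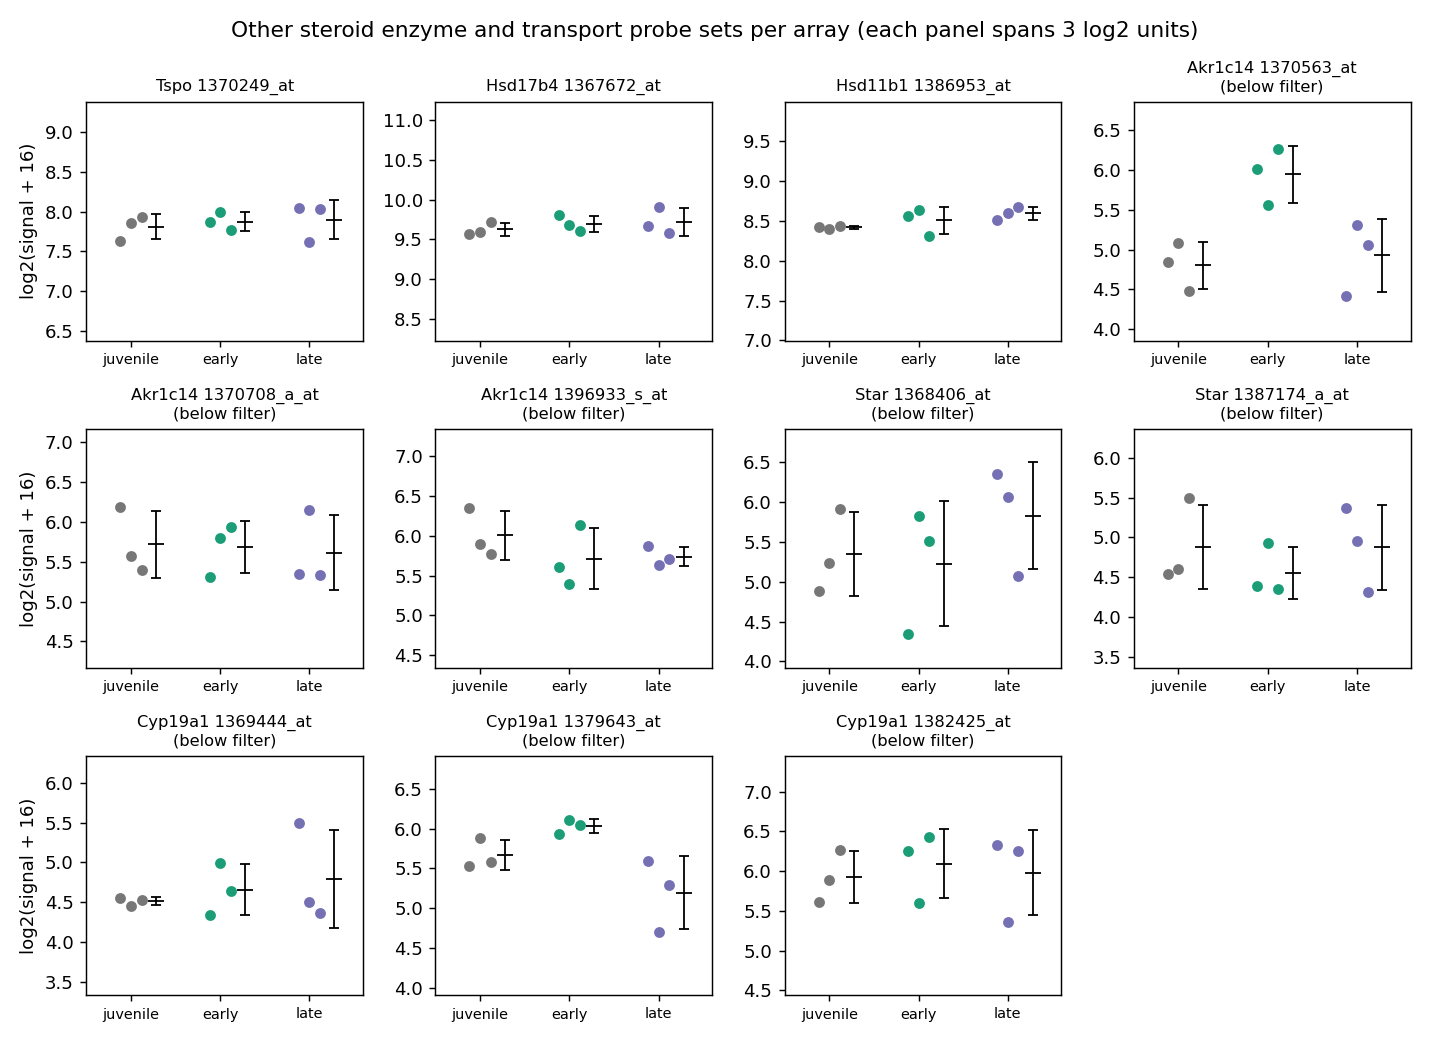
Normalized log2(signal + 16) on each array for the 11 probe sets other than that of Akr1c15, by stage, with mean and SD of 3 arrays in black and 3 log2 units per panel. Early pubertal points stand apart from both other stages only for Akr1c14 1370563_at and Cyp19a1 1379643_at, both below the filter; late pubertal points of Hsd11b1 lie above the juvenile points.

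Leaving out Akr1c15, stages did not overlap for 2 of 11 probe sets between early pubertal and juvenile animals, where 8.5% of all 31042 probe sets were so separated. Between late pubertal and juvenile animals it was 1 of 11, beside 10.9% of all probe sets. Between late and early pubertal animals it was 2 of 11, beside 10.9% as well. These counts, over 11 probe sets of 6 genes, are near the background, and 0 of the 3 tested probe sets passed in any comparison, with limma adjusted p between 0.936 and 0.9998. Over the 9 arrays the 11 probe sets correlated with Akr1c15 at r between −0.623 for Akr1c14 1396933_s_at and 0.623 for Hsd11b1, a description over arrays that share stage and brightness.

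**Figure D3:**
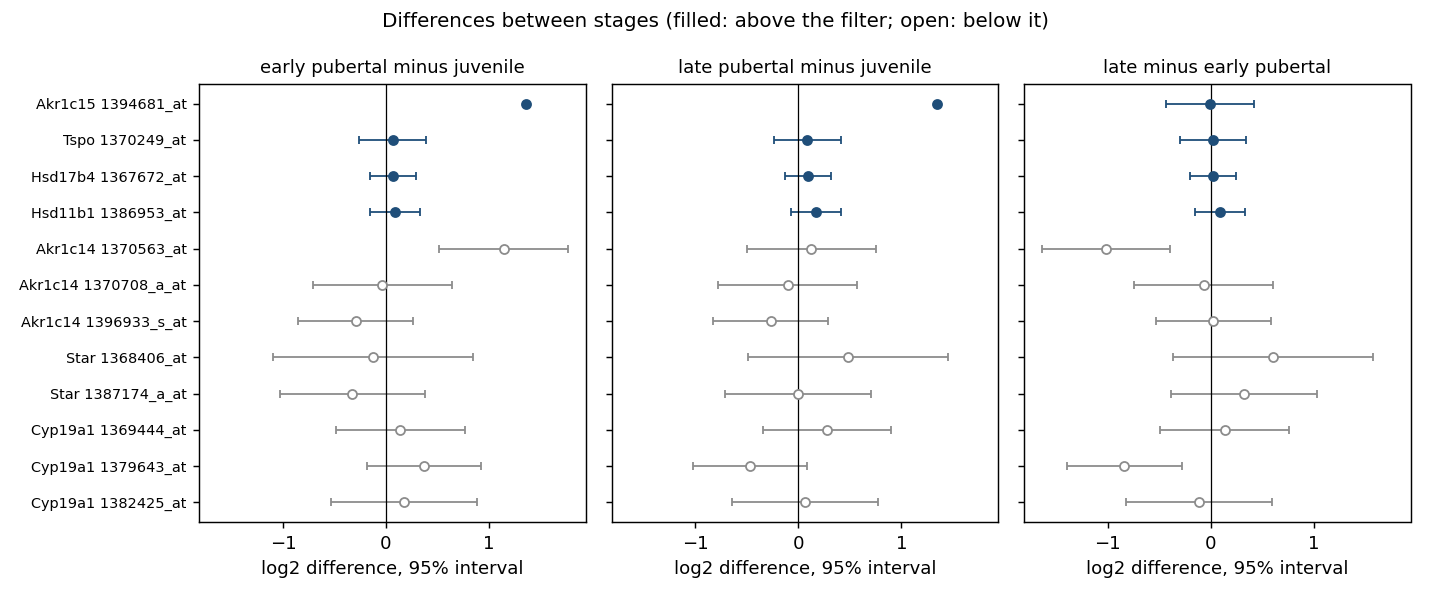
Log2 difference between stages for the 12 probe sets, with 95% intervals from limma; filled points lie above the signal filter and open points below it, and Akr1c15 has no interval in the comparisons it was chosen on. Akr1c15 stands at 1.36 and 1.35 against juvenile animals and at −0.01 between late and early pubertal animals, while the other tested genes lie between 0.02 and 0.17.

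The wider pathway was read from 8 lists of steroid genes, each gene by its brightest tested probe set. Beside the 8 genes chosen at the outset they held 97 others, the other Akr1c genes included, of which 80 had a probe set and 45 were tested. None of the 45 passed in any comparison, where limma called 0% of tested probe sets. Between early pubertal and juvenile animals 26 of 45 had a positive difference, as had 51% of all 10600 tested genes and 49.6% of tested probe sets, and the median was 0.03, beside 0.0029 over all tested genes. Between late pubertal and juvenile animals 28 of 45 were positive (50.8% of genes and 49.6% of probe sets), with a median of 0.05 beside 0.0022. Between late and early pubertal animals 25 of 45 were positive (50.1% of genes and of probe sets), with a median of 0.02. Before adjustment, 5 of 45 were below 0.05 in the early comparison and 3 of 45 in the late one, beside 4.46% and 4.14% of tested probe sets. Between late and early pubertal animals it was 2 of 45, beside 5.21%.

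Stages did not overlap for 9 of these 45 genes between early pubertal and juvenile animals (8.3% of all tested probe sets), for 7 between late pubertal and juvenile animals (11.4%) and for 5 between late and early pubertal animals (11.3%). Those shares count probe sets, while the 45 are genes read by their brightest one, so the units are unlike and no excess was tested. Differences of the 45 genes ran from −0.31 for Akr1b10 to 0.40 for Sult1a1 in the early comparison and from −0.40 for Akr7a3 to 0.40 for Sult1a1 in the late one. Akr1c15 lay outside both ranges, a position that its choice on these same differences rested on.

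**Figure D4:**
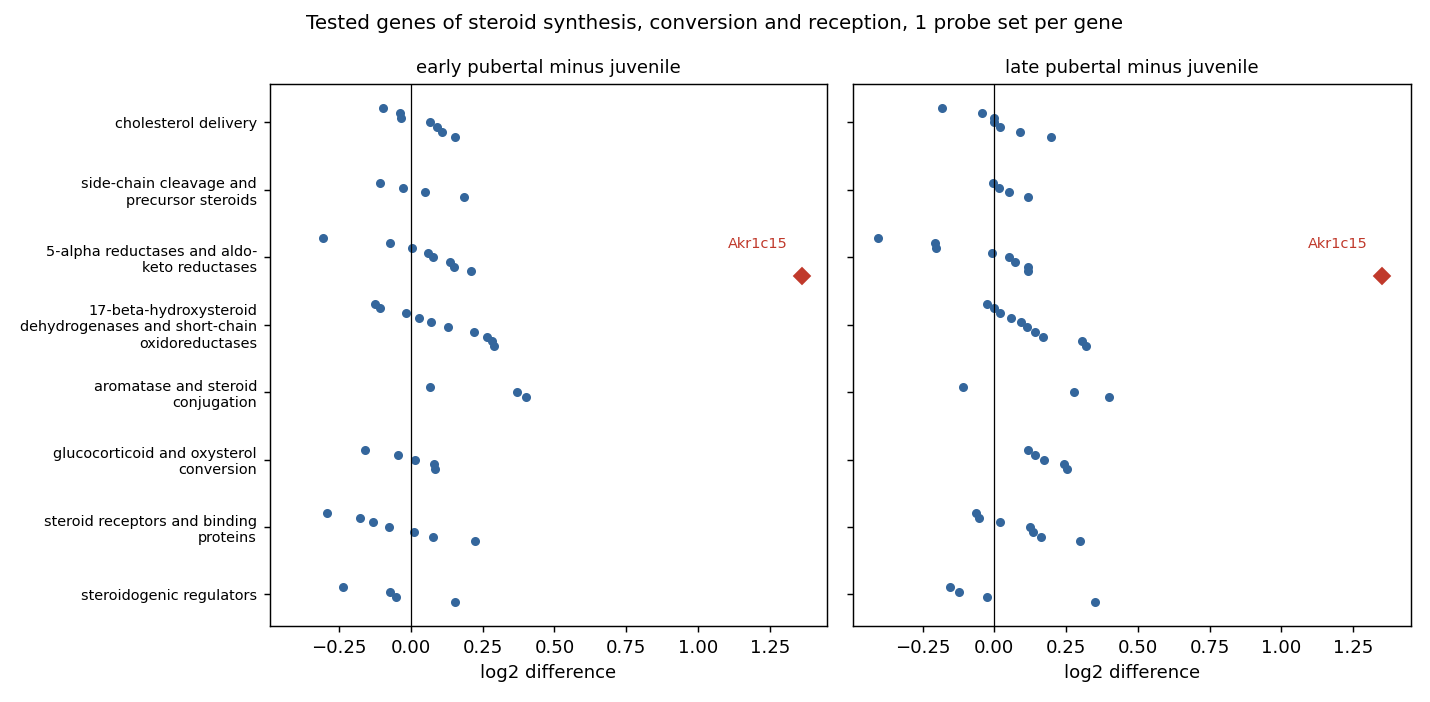
Log2 difference of early pubertal (left) and late pubertal (right) from juvenile animals for each tested gene of the 8 lists, 1 point per gene, placed apart within a list only for legibility. Akr1c15, which was chosen on these differences, stands at 1.36 and 1.35. The 45 further genes of the lists lie between −0.31 and 0.40 and between −0.40 and 0.40.

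Sult1a1, a phenol sulphotransferase of the list for aromatase and steroid conjugation, had log2 levels of 9.45, 9.29 and 9.60 in juvenile animals, 9.72, 9.73 and 10.09 in early pubertal animals and 9.68, 9.89 and 9.96 in late pubertal animals. Pubertal and juvenile arrays did not overlap. Its difference from juvenile animals was 0.40 ± 0.12 (SE) in both pubertal stages, with limma adjusted p of 0.994 and 0.9998. At the deposited level, where the medians of all tested probe sets were −0.24 and −0.016, it was 0.15 and 0.36. Sts, steroid sulphatase, which frees steroids from their sulphates, averaged 7.30 ± 0.23 in early pubertal and 6.93 ± 0.16 in juvenile animals (SD, n = 3), a difference of 0.37 ± 0.16 (SE, adjusted p 0.994), and of 0.15 at the deposited level. Sult4a1, a brain sulphotransferase, differed by 0.07 ± 0.13 between the same stages. Of the 3 tested genes of this list, 0 passed the test. Cyp19a1, which heads this list, was below the filter.

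Among 17β-hydroxysteroid dehydrogenases and related oxidoreductases, 7 of 10 tested genes were positive in early and 8 of 10 in late pubertal animals relative to juvenile ones, with medians of 0.10 in both and 0 past the test. Hsd17b11, a lipid droplet dehydrogenase that can act on androgen metabolites, had log2 levels of 9.22, 9.30 and 9.17 in juvenile animals, 9.47, 9.52 and 9.55 in early pubertal animals and 9.37, 9.67 and 9.61 in late pubertal animals. Every pubertal array lay above the juvenile ones. Its differences were 0.28 ± 0.10 (SE, limma adjusted p 0.994) and 0.32 ± 0.10 (adjusted p 0.9998). The early one was 0.03 at the deposited level, where the median of all tested probe sets was −0.24. Hsd17b10, a mitochondrial dehydrogenase, differed by 0.26 ± 0.13 in early pubertal animals, and Hsd17b7, which also serves cholesterol synthesis, by 0.26 ± 0.14 between late and early pubertal animals.

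In the list of 5α-reductases and aldo-keto reductases, 9 genes were tested. Relative to juvenile animals all but Akr1c15, which was chosen on these differences, stayed within 0.41 in size. Genes of the list below the filter are not counted here, and some of them differed by more, as Akr1c14 did on 1370563_at (1.14 in early pubertal animals). The remainder included Akr7a3, an aflatoxin aldehyde reductase, which averaged 6.76 ± 0.14 in late pubertal animals and 7.16 ± 0.23 in juvenile animals (SD, n = 3), a difference of −0.40 ± 0.17 (SE, limma adjusted p 0.9998). Akr7a2 differed by −0.41 ± 0.19 between late and early pubertal animals and Akr1b10 by −0.31 ± 0.18 between early pubertal and juvenile animals. In cholesterol delivery, 4 of 7 tested genes were positive in early and 3 of 7 in late pubertal animals relative to juvenile ones. Npc2, the lysosomal cholesterol carrier, differed by 0.15 ± 0.07 in early pubertal animals. The deposited level gave Npc2 −0.08 there, beside a median of −0.24 over all tested probe sets. Stard3, a late endosomal sterol carrier, differed by 0.20 ± 0.12 between late pubertal and juvenile animals. Dbi, a ligand of Tspo, differed by −0.09 ± 0.06 between late and early pubertal animals. The deposited level gave Dbi 0.09 there, beside a median of 0.22.

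The first steps of synthesis were sparsely measured: 4 of 10 genes with a probe set were tested. Fdx1, the electron donor of mitochondrial steroid hydroxylases, differed by 0.23 ± 0.13 between late and early pubertal animals. Por, the reductase that serves microsomal ones, differed by 0.19 ± 0.11 between early pubertal and juvenile animals. The deposited level gave Por −0.08 there, beside a median of −0.24 over all tested probe sets. Cyb5a had 0.05 ± 0.07 between late pubertal and juvenile animals. In glucocorticoid and oxysterol conversion, Hsd11b1 among them, 3 of 5 tested genes were positive in early and 5 of 5 in late pubertal animals relative to juvenile ones. The medians were 0.02 and 0.17, with 0 past the test, and 51% and 50.8% of all tested genes were positive. Hsd11b2, which inactivates corticosterone, differed by 0.25 ± 0.19 between late pubertal and juvenile animals. Cyp7b1 and Cyp46a1, hydroxylases of oxysterols and cholesterol, differed by 0.30 ± 0.21 and 0.16 ± 0.12 between late and early pubertal animals.

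Receptors gave no common direction. Pgrmc1, a membrane-associated progesterone receptor component, had a mean log2 level of 11.93 ± 0.07 in early pubertal animals and 12.06 ± 0.02 in juvenile animals (SD, n = 3), a difference of −0.13 ± 0.05 (SE, limma adjusted p 0.994). Its relative Pgrmc2 averaged 9.73 ± 0.02 in early pubertal and 9.51 ± 0.15 in juvenile animals, a difference of 0.22 ± 0.09 (adjusted p 0.994). The deposited level gave Pgrmc2 −0.03 there, beside a median of −0.24 over all tested probe sets. Pgr, the nuclear progesterone receptor, was 0.45 ± 0.21 apart between late and early pubertal animals (adjusted p 0.914). Of 7 tested receptors and binding proteins, 3 were positive in early and 5 in late pubertal animals relative to juvenile ones. Among regulators of steroidogenic genes, 1 of 4 was positive in both comparisons: Nr5a1, steroidogenic factor, differed by 0.35 ± 0.20 in late pubertal animals, Nr4a1 by −0.24 ± 0.18 in early pubertal animals and Nr2f2 by −0.15 ± 0.14 in late pubertal animals.

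Genes whose levels most resembled those of Akr1c15 were ranked by Pearson r over the 9 arrays, among tested probe sets with 1 symbol. The 8 highest were Bcor (r = 0.957), a transcriptional corepressor, Huwe1 (0.953), a ubiquitin ligase, Higd1a (0.952), a mitochondrial protein of the hypoxia response, Ptrh2 (0.936), a mitochondrial peptidyl-tRNA hydrolase, Rgs3 (0.922), a regulator of G protein signalling, Agmat (0.919), agmatinase, Esf1 (0.913), a nucleolar protein, and C1qtnf5 (0.913). After the stage means were taken out, r was 0.875 for Agmat, 0.815 for Higd1a, 0.794 for Ptrh2 and 0.298 for C1qtnf5, the lowest of the 8.

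Of these 8 genes, Agmat came nearest to Akr1c15 in size, but its early pubertal and juvenile arrays overlapped, at 6.81, 7.05 and 6.19 in early pubertal and 5.58, 5.45 and 6.29 in juvenile animals. All 3 of its juvenile values lay below the filter level, as for Akr1c15. It averaged 6.69 ± 0.45 in early pubertal animals and 5.77 ± 0.45 in juvenile animals (SD, n = 3), a difference of 0.91, and it differed by 0.86 between late pubertal and juvenile animals. Bcor differed by 0.36 and 0.32 in these comparisons, and the other 6 by between 0.08 and 0.36. All 8 were picked for their resemblance to Akr1c15 on these same arrays. Their differences from juvenile animals, and r after the stage means were taken out, are therefore a description and no separate evidence. Other probe sets of Huwe1, Rgs3 and Esf1 had r between −0.333 and 0.540 with Akr1c15, that of Ptrh2 had 0.364 and that of Higd1a 0.647. The ranking depended on single arrays and on scaling: with an array left out, 3 to 6 of these 8 genes were among the highest 8, and at the deposited level 1 was.

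Of 10 lists of cell type markers, the summed normalized signal of 3 was separated between juvenile animals and a pubertal stage. Of single tested probe sets, 8.3% were so separated for the early and 11.4% for the late pubertal stage. No such share was computed for sums, in which the brightest markers weigh most. For leptomeninges and fibroblasts, 15 of 15 markers were above the filter, and the sum lay between 21969 and 24533 in juvenile, 23047 and 29019 in early pubertal and 24701 and 27170 in late pubertal animals. The late pubertal arrays lay above the juvenile ones. Of these 15 markers, 14 had a positive difference from juvenile animals in early and 14 in late pubertal animals, with medians of 0.19 and 0.26. Of all tested genes, 51% and 50.8% were positive. Stages did not overlap for 0 of the 15 markers in the early and 3 in the late comparison. Astrocyte markers, 11 of 11 above the filter, summed to between 35911 and 36467 in juvenile, 36566 and 38423 in early pubertal and 36060 and 39291 in late pubertal animals, and the early pubertal arrays lay above the juvenile ones. Ependymal and tanycyte markers, with Dio2 alone of 9 below the filter, summed to between 3880 and 4312 in juvenile, 3910 and 5389 in early pubertal and 4345 and 4677 in late pubertal animals, and the late pubertal arrays lay above the juvenile ones. Vim, the brightest of these markers, overlapped between all stages. Rax was higher than in juvenile animals without overlap in both pubertal stages, by 0.39 and 0.54 (limma adjusted p 0.994 and 0.9998). Tmem212 was lower without overlap in the late stage, by −0.19. Of the 8 tested markers of this list, 6 had a positive and 2 a negative difference in both comparisons. Endothelial and mural markers, with 12 of 14 above the filter, overlapped between stages, at 4981 to 5603 in juvenile animals, 5244 to 5911 in the early and 5438 to 5715 in the late pubertal stage, and so did the other 6 lists. The part of these cell types in the level of Akr1c15 was not tested.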

How the data were processed

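MAS5 gave the deposited signal intensities, 1 linear value per probe set, per the submitters' processing notes. No version, target level or detection call is stated in the labels. Stages, days and replicate numbers came from the labels, which give no batch.

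After 57 controls were removed from 31099 probe sets, the platform annotation gave 1 gene symbol to 20826 of those left, several to 436 and none to 9780. RefSeq gene records matched 20758, with 0 symbols changed. Intensities were converted to log2(signal + 16) and quantile-normalized, since trimmed means differed between arrays, and probe sets with a mean under the 40th percentile were not tested. The test was limma 3.58.1 (R 4.3.3), two-sided, on all 9 arrays with 1 mean per stage and a variance trend, and was checked on simulated data. A fold change is on the log2(signal + 16) scale and understates dim probe sets. The number of arrays limits the precision.

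Genes named were all those chosen at the outset, the Akr1c subfamily, up to 3 genes per list with the smallest unadjusted p over the 3 comparisons, and the 8 most like Akr1c15. Members and lists were chosen with earlier results of these data known. Alternatives comprised constants of 1 and 64, the deposited level, median centring, no filter or a filter at the 60th percentile, other variance priors, array weights, a threshold of 0.1, the 6 arrays of a comparison alone, probe sets averaged per gene, and leaving out each array.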

Additional observations from a re-analysis of the deposited data

How the results depend on the processing

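Limma called 0 probe sets in each comparison. At the deposited level it called 10 between early pubertal and juvenile, 1 between late pubertal and juvenile and 21 between late and early pubertal animals. Akr1c15 was among the 10 and was the 1, which is no test of a gene chosen on these comparisons. The 10 and the 21 come beside medians over all tested probe sets of −0.24 and 0.22. With array weights it called 1, Meg3, between late pubertal and juvenile animals, and with single arrays left out 0 to 1 there, the 1, an unnamed probe set, without juvenile replicate 2, and 0 to 0 in the other comparisons. The differences of Akr1c15 from juvenile animals ran from 0.88 to 1.65 over the alternatives, with 0.89 in early and 0.88 in late pubertal animals at a constant of 64. With single arrays left out they ran from 1.23 to 1.57 and from 1.22 to 1.56. Between late and early pubertal animals Akr1c15 turned to 0.22 at the deposited level and to 0.031 with array weights, and ran from −0.092 to 0.055 with single arrays left out, including 0.00365, 0.0554 and 0.0515 without early pubertal replicates 7 and 8 and late pubertal replicate 12.

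Other signs that turned belong to small differences that never passed the test. At the deposited level, early pubertal minus juvenile values were −0.19 for Tspo, −0.19 for Hsd17b4, −0.17 for Hsd11b1, −0.061 for Akr1c19, −0.080 for Npc2, −0.032 for Pgrmc2 and −0.077 for Por, and late minus early values were 0.093 for Dbi and 0.037 for Sult4a1. The medians of all tested probe sets there were −0.24 and 0.22. Relative to these medians, each value kept the sign it had after normalization. With single arrays left out, Tspo ran from −0.024 to 0.13 in early pubertal minus juvenile animals, −0.000956 to 0.23 in late pubertal minus juvenile animals and −0.053 to 0.16 in late minus early pubertal animals. It was −0.024 and −0.000956 without juvenile replicate 1, and −0.0312, −0.0533 and −0.0427 without early pubertal replicate 10 and late pubertal replicates 12 and 20. Hsd17b4 was −0.00360 between late pubertal and juvenile animals without late pubertal replicate 14. Between late and early pubertal animals it ran from −0.073, without that array, to 0.095 and was −0.0221 without early pubertal replicate 10, and Hsd11b1 ran from −0.00690, without early pubertal replicate 10, to 0.15. The cause was not tested. No paired analysis was possible because the stages share no replicate number. Akr1c15 lay below a filter at the 60th percentile and had no value there.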
